A study of Mus musculus with 4 samples.

Results

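Mitochondrial ribosomes translate the few proteins that the mitochondrial genome encodes, all of them parts of the respiratory chain and the ATP synthase. Their RNA comes from the mitochondrial genome, while every one of their proteins is encoded in the nucleus, made in the cytosol and imported. Many of these proteins descend from bacterial ribosomal proteins and others are found only in mitochondrial ribosomes. The genes for them are named Mrpl after the large subunit, which joins amino acids, and Mrps after the small subunit, which reads the messenger RNA. Genes were taken as members when their symbol began with Mrpl or Mrps followed by a number and did not mark a pseudogene, which gave 77 of the 23990 genes in the tables. All 77 averaged 1 FPKM or more and were tested, among 12040 tested genes in all.

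The values are FPKM, fragments per length of transcript and sequencing depth, from 4 RNA-seq libraries of alveolar type 1 (AT1) cells, the thin flat cells through which the lung exchanges gas. The cells were sorted from newborn mice at postnatal day 3 to 4, of mixed B6 and 129 strain. The genotype label was Scnn1a-Cre; Rosa[Sox2/+] for the 2 libraries called labelled Sox2 here and Scnn1a-Cre; Rosa[mTmG/+] for the 2 called labelled control, whose titles read WT. Both groups thus carry Cre driven by Scnn1a, a sodium channel gene of lung epithelium, and an inserted Rosa allele that Cre acts on, either the transcription factor Sox2 or a membrane reporter. The labels call the animals littermates but do not say whether each library is another animal, so the p-values cover the scatter of these libraries alone, which may be technical.

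Sox2 went against the labels, at 1.41 and 1.99 FPKM in the libraries labelled Sox2, against 302 and 477 FPKM in those labelled control. Directions below follow the labels as deposited, so that "lower" means lower in the 2 libraries with little Sox2 RNA. Whether the labels of the groups were exchanged was not tested, and if they were, every direction given here would turn round. AT1 markers went the other way from Sox2: 9 of 10 rose in the libraries labelled Sox2, where they summed to 6835 and 7785 FPKM, against 1328 and 796 FPKM in those labelled control. All 7 markers of AT2 cells, the surfactant-making neighbours, rose too, summing to 25170 and 17585 FPKM against 5972 and 969 FPKM. Of 8 markers of dividing cells, 6 fell (limma), and they summed to 147 and 67.1 FPKM in the libraries labelled Sox2 against 465 and 259 FPKM. No marker of these 3 lists was at 0 in any library. Of endothelial markers 2 of 5 rose. Just 1 rose for leukocytes (Csf1r, of 4 tested), club cells (Scgb3a2, of 3) and ciliated cells (Tppp3, of 3 tested). The others of these lists did not pass or were not tested, and 2 went the other way. Cyp2f2 of club cells had 94.3 and 107 FPKM in the libraries labelled Sox2 against 72.6 and 376 FPKM (log2 difference -0.71). Dnah5 of ciliated cells, not tested, had 0.537 and 0.577 FPKM against 1.58 and 0.617 FPKM. None of 5 mesenchymal markers passed (limma, none at an unadjusted p under 0.05 except Pdgfra). Of the basal cell markers only Trp63 was tested and fell, while Krt5 was at 0 in both libraries labelled Sox2. Across all tested genes the median log2 difference was -0.29, taken on log2(FPKM + 1) values as labelled Sox2 minus labelled control. Values of the members are to be read against that shift.

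Of the 77 mitochondrial ribosomal protein genes, 18 fell in the libraries labelled Sox2 (limma), 59 did not pass and none rose. The FPKM of all 77 summed to 1297 and 986 in the libraries labelled Sox2, against 2263 and 2071 in those labelled control. Leaving out small RNA genes (symbols beginning Mir or Snor), that is 0.386% and 0.358% of all FPKM against 0.572% and 0.585%. This separation depends on leaving those genes out. The totals without them were 336337 and 275639 FPKM against 395978 and 353819 FPKM. Tested genes, small RNA genes included, summed to 389218 and 291264 FPKM against 488777 and 720009 FPKM. Of that sum, the members hold a smaller share in labelled control replicate 2 than in either library labelled Sox2. The groups did not overlap for 70 of the 77 members, all of them lower in the libraries labelled Sox2, beside 42.5% of all tested genes that were lower without overlap and 15.7% that were higher. The log2 difference was below 0 for 76 members (67.5% of all tested genes) and its median was -0.91, or -0.62 relative to the median of all tested genes. In bulk RNA, fewer cells of a type and less RNA per cell cannot be told apart. The part that dividing cells or AT2 cells have in the difference was not tested.

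The 18 that fell had a limma adjusted p under 0.05 over all tested genes and make up 23.4% of the members, against 8.11% of all tested genes called lower and 4.2% called higher. At an unadjusted p under 0.05, 51 members were lower (21.1% of all tested genes), and none was higher. The mean in the libraries labelled control was at least 2 times that in the libraries labelled Sox2 for 39 members, which holds for 20.1% of all tested genes. These counts of calls changed when 1 library was left out. Such a fit keeps only 1 library of a label, so reliance on the library left out cannot be told apart from having fewer libraries. Without labelled Sox2 replicate 1, limma called 2 members lower, Mrpl12 and Mrpl13, where 3.5% of all tested genes were called lower. Without labelled Sox2 replicate 2 it called none (0.955%), with a smallest adjusted p of 0.0951 and 14 members lower at an unadjusted p under 0.05 (7.67% of all tested genes). Without labelled control replicate 1 it called 6 (7.37%), and without labelled control replicate 2 it called 15 (10.9%), of which 12 are among the 18. The median difference kept its sign in these 4 fits, between -0.73 and -1.11, and lay between -0.59 and -0.65 relative to the median of all genes.

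**Figure D1:**
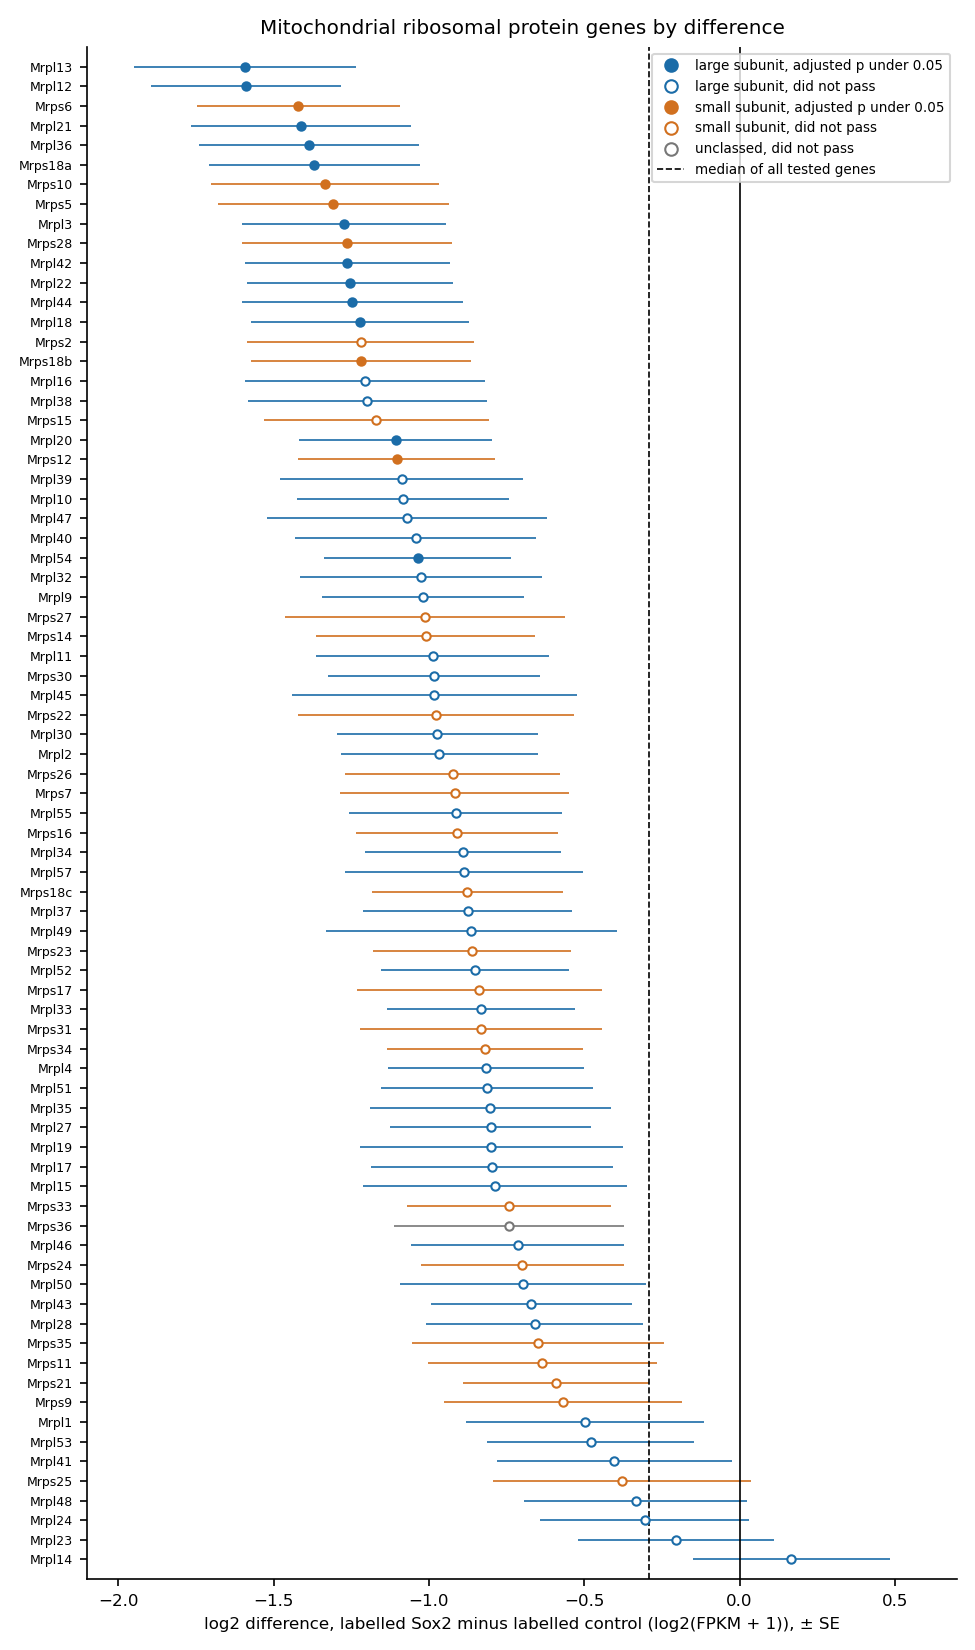
Log2 difference of each of the 77 members (log2(FPKM + 1), labelled Sox2 minus labelled control), with its standard error; filled points have a limma adjusted p under 0.05, blue marks the large and orange the small subunit, and grey the unclassed Mrps36. All members but Mrpl14 lie left of 0, and all but Mrpl14 and Mrpl23 lie left of the dashed line, the median of all tested genes at -0.29.

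The large subunit accounted for 50 members, counting Mrps18a and Mrps30, which carry a small-subunit name but sit in the large one. Of these, 12 fell and 38 did not pass, with a median log2 difference of -0.94. Mrpl12 forms the flexible stalk that recruits translation factors to the ribosome. It stood at 23.5 and 20.5 FPKM in the libraries labelled Sox2, against 69.7 and 66.4 FPKM in those labelled control. The groups lie far apart and the libraries within each are close. Its mean was 22.0 ± 2.13 FPKM (SD, n = 2) against 68.1 ± 2.30 FPKM (SD, n = 2), which is 3.09-fold lower (difference on the log2 scale -1.59, SE 0.31, limma adjusted p = 0.00867). The gene is at chr11:120484669-120488754 in mm10.

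Mrpl13, whose bacterial counterpart joins the large subunit early in assembly, had 24.1 and 13.1 FPKM in the libraries labelled Sox2, against 60.8 and 51.2 FPKM. Both libraries labelled Sox2 were below both labelled control, and those 2 stood farther apart than for Mrpl12. The log2 difference was -1.59 (SE 0.36, limma adjusted p = 0.0173), and it was -1.18 without labelled Sox2 replicate 2. Mrpl13 lies at chr15:55534095-55557312. Mrpl21, a protein bound to the RNA of the large subunit, had 7.90 and 5.55 FPKM in the libraries labelled Sox2 against 19.9 and 18.8 FPKM in those labelled control (log2 difference -1.41, SE 0.35, limma adjusted p = 0.0270). Mrpl36, one of the smallest ribosomal proteins, had 10.4 and 6.62 FPKM against 24.0 and 22.6 FPKM (-1.38, SE 0.35, 0.0295).

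Mrpl3 and Mrpl22 were called as well. Mrpl3 reaches towards the site of peptide bond formation in bacterial ribosomes, and stood at 13.1 and 10.6 FPKM in the libraries labelled Sox2 against 31.4 and 28.4 FPKM. Mrpl22 lines the tunnel through which the new protein leaves, and stood at 10.96 and 8.96 FPKM against 24.7 and 25.3 FPKM. Neither gene overlapped between groups. Their log2 differences were -1.27 (SE 0.33, limma adjusted p = 0.0301) and -1.25 (SE 0.33, 0.0334). Mrpl18 and Mrpl20, both with bacterial counterparts, passed with differences of -1.22 and -1.11. Mrpl23 and Mrpl24, whose bacterial counterparts stand at the mouth of the tunnel, did not pass, with differences of -0.20 and -0.30 and overlapping groups.

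Of the 21 large-subunit members without a counterpart in the bacterial large subunit, 4 fell, against 8 of the 29 with one. The medians of the 2 classes were -0.89 and -0.97. Mrpl42 had 24.1 and 16.4 FPKM in the libraries labelled Sox2 against 53.7 and 45.1 FPKM in those labelled control (log2 difference -1.26, SE 0.33, limma adjusted p = 0.0321). Mrpl44, an RNase III-like protein whose human gene is mutated in a cardiomyopathy, had 6.71 and 5.18 FPKM against 15.7 and 15.0 FPKM (-1.25, SE 0.36, adjusted p = 0.0442). Mrpl54 had 32.1 and 29.6 FPKM against 64.4 and 64.2 FPKM (-1.04, SE 0.30, 0.0473), and its libraries labelled control were the closest pair among the called members. Its call was lost in 11 of 13 other settings. The fourth, Mrps18a, is described with its relatives below.

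The small subunit accounted for 26 members, of which 6 fell and 20 did not pass, with a median of -0.91. Of those with a bacterial counterpart 5 of 16 fell (median -0.96), and of those classed without one 1 of 10, Mrps18b (median -0.85). Mrps18b is itself a relative of a bacterial protein, as described below, so these counts depend on how it is classed. Mrps6, a protein of the platform, had 20.7 and 26.6 FPKM in the libraries labelled Sox2 against 76.1 and 54.7 FPKM in those labelled control. With Mrps34 it was 1 of 2 members that were higher in labelled Sox2 replicate 2 than in replicate 1. Its log2 difference was -1.42 (SE 0.33, limma adjusted p = 0.0191), and it did not pass once labelled Sox2 replicate 1 was left out (0.112, limma) or replicate 2 (0.0951), nor under median-of-ratios, quantile or median rescaling. The locus, chr16:92058336-92112227, overlaps that of Slc5a3, a myo-inositol transporter gene, which stood at 5.66 and 5.69 FPKM against 8.07 and 7.06 FPKM. The strand setting of the counting is not given in the sources used here, so how fragments were divided between them is uncertain.

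Mrps5 and Mrps12 belong to the parts of the small subunit that govern accurate reading of codons. Mrps5 had 11.2 and 6.38 FPKM in the libraries labelled Sox2 against 24.98 and 20.2 FPKM (log2 difference -1.31, SE 0.37, limma adjusted p = 0.0437). Mrps12 had 14.9 and 14.4 FPKM against 31.2 and 34.1 FPKM (-1.10, SE 0.32, 0.0456). Both genes were lower in both libraries labelled Sox2, and the libraries labelled Sox2 were closer together for Mrps12. Mrps10, a protein of the head, had 7.24 and 5.29 FPKM against 20.3 and 14.5 FPKM (-1.33, SE 0.37, limma adjusted p = 0.0393). Mrps28, a relative of bacterial protein S1, had 21.0 and 13.2 FPKM against 41.9 and 41.1 FPKM (-1.26, SE 0.34, 0.0354). Mrps2 just missed the threshold (-1.22, SE 0.37, limma adjusted p = 0.0521).

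Mrps18a, Mrps18b and Mrps18c are 3 relatives of a single bacterial protein that occupy different places in the mitochondrial ribosome. Mrps18a, in the large subunit, had 21.1 and 13.4 FPKM in the libraries labelled Sox2 against 48.7 and 41.7 FPKM (log2 difference -1.37, SE 0.34, limma adjusted p = 0.0260). Mrps18b had 8.82 and 6.13 FPKM against 19.1 and 17.9 FPKM (-1.22, SE 0.35, 0.0470). Mrps18c, the one in the bacterial position, had 27.2 and 24.0 FPKM against 45.1 and 50.5 FPKM and did not pass (-0.88, SE 0.31, 0.0861). All 3 were lower without overlap, and whether their differences differ from each other was not tested.

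**Figure D2:**
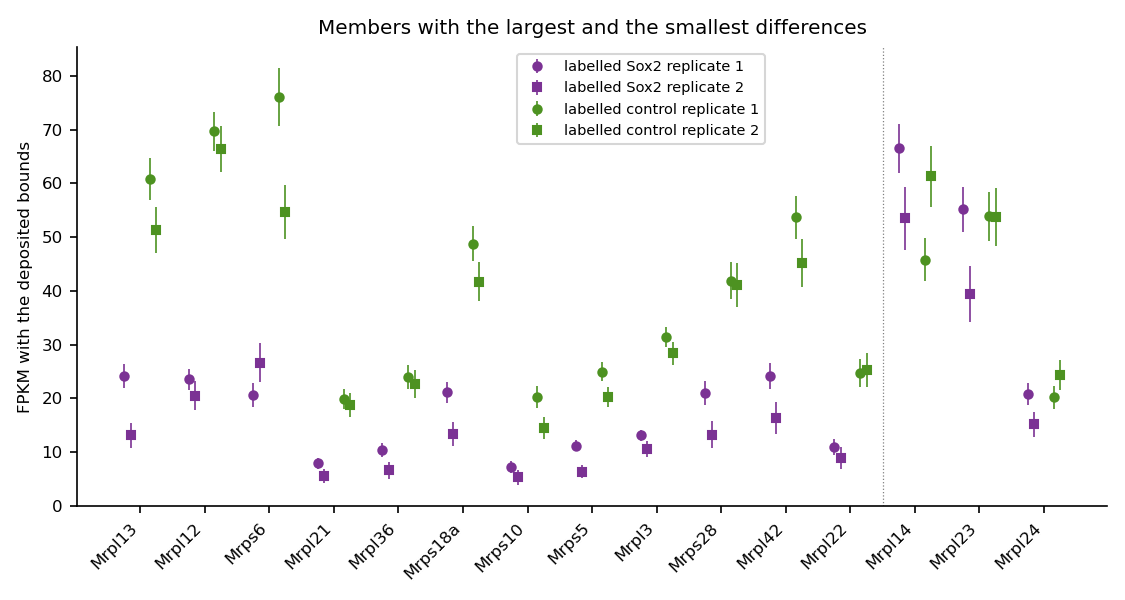
FPKM in each library, with the bounds deposited for each value, for the 12 members with the largest differences and the 3 with the smallest (right of the dotted line). For the 12, both libraries labelled Sox2 lie below both labelled control, as for Mrpl12 at 23.5 and 20.5 against 69.7 and 66.4 FPKM, while Mrpl14, Mrpl23 and Mrpl24 overlap.

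At the other end, 7 members overlapped between groups. Mrpl14, which faces the small subunit and is the docking site of the assembly factor Malsu1, was the only member with a positive difference. It had 66.5 and 53.5 FPKM in the libraries labelled Sox2, against 45.8 and 61.3 FPKM in those labelled control. The values are interleaved, and the difference of 0.17 on the log2 scale (SE 0.32, limma adjusted p = 0.774) turned to -0.039 without labelled control replicate 1. Mrpl23 had 55.1 and 39.4 FPKM against 53.9 and 53.8 FPKM (log2 difference -0.20, SE 0.32, limma adjusted p = 0.718), and Mrpl24 had 20.8 and 15.1 FPKM against 20.2 and 24.3 FPKM (-0.30, SE 0.34, 0.594). The sign of Mrpl23 turned under all 3 rescalings and without labelled Sox2 replicate 2, and that of Mrpl24 under median-of-ratios and quantile rescaling. Mrpl24 shares its locus with Rrnad1. RefSeq lists pseudogenes of Mrpl23, Mrpl27, Mrpl48 and Mrps36, so fragments may have been split between those genes and their copies.

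The most abundant member in every library was Mrpl52, at 73.5 and 62.2 FPKM in the libraries labelled Sox2, against 114 and 132 FPKM in those labelled control, followed over all libraries by Mrps21, Mrpl33, Mrpl14, Mrpl23 and Mrpl54. Of these 6, 1 passed, Mrpl54. Mrpl52 (log2 difference -0.85, limma adjusted p = 0.0883), Mrpl33 (-0.83, 0.0946) and Mrps21 (-0.59, 0.214) did not pass, although their groups did not overlap. At the low end, Mrpl35 had 1.61 and 1.61 FPKM against 4.05 and 3.09 FPKM. The order of the members by level was much alike in all libraries, with Spearman's rho of 0.921 to 0.955 between pairs of libraries over the 77 genes, which share their lengths and annotation across libraries. On the log2(FPKM + 1) scale the difference did not follow the level closely: the median was -0.88 over the 26 members with the lowest means, -0.92 over the next 25 and -0.88 over the 26 with the highest. The number called was 2, 6 and 10 in this order. The 1 added to each FPKM makes differences at low levels smaller. Mrpl35, at -0.80, was 2.22-fold lower by mean FPKM, and Mrpl52, at -0.85, was 1.82-fold lower. Its part in the likeness of the medians was not tested.

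The 2 subunits kept nearly the same proportion in all libraries. Summed FPKM of the large subunit was 2.31 and 2.19 times that of the small subunit in the libraries labelled Sox2, against 2.14 and 2.20 times in those labelled control. The ranges overlap. Within each label, replicate 2 was the lower library for most members, 75 of 77 in labelled Sox2 and 58 of 77 in labelled control, as it was for 85.9% and 72.6% of all tested genes. Labelled Sox2 replicate 2 also had the widest deposited bounds, with a median half-width of 18.2% of the value over the members, where the other libraries had 9.96% in labelled Sox2 replicate 1 and 8.64% and 10.6% in labelled control. For 55 members the bounds of both libraries labelled Sox2 lay wholly below those of both labelled control, as they did for 29.1% of all tested genes.

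**Figure D3:**
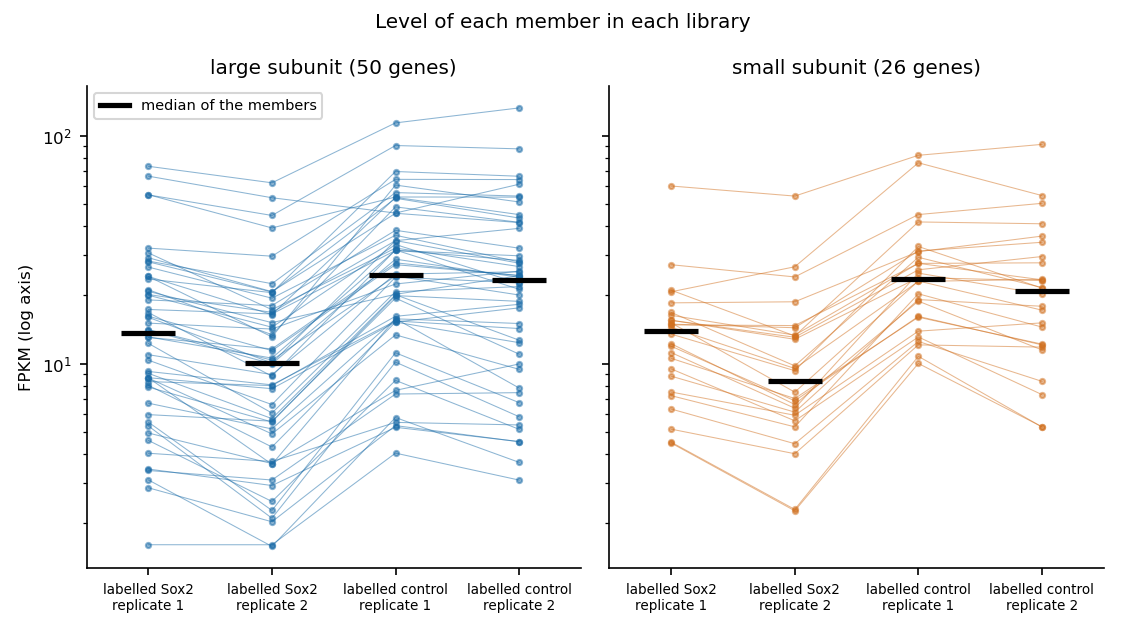
FPKM of each member in each library on a log axis, for the 50 large-subunit and 26 small-subunit genes, with 1 line per gene and black bars at the medians. The large-subunit medians lay at 13.6 and 10.0 FPKM in the libraries labelled Sox2 against 24.5 and 23.3 FPKM in those labelled control, and the small-subunit medians at 14.0 and 8.41 against 23.5 and 20.8 FPKM.

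Promoter windows of 300 bases, from 250 before to 50 after the start site, were available from RefSeq (GRCm38.p6) for 68 members. They were searched on both strands for motifs of factors known to bind promoters of nuclear genes for mitochondria or ribosomes, and matches were counted whether or not they overlapped another motif. The ETS motif CCGGAAG, read by GABPA among others, was in the window of 25 of the 68 members (36.8%), against 9.93% of all genes with a window and 20.5% of tested genes with one. The YY1 motif AAGATGGC was in 12 (17.6%, against 3.19% and 5.38%). The NRF1 core GCATGCGC was in 8 (11.8%, against 3.05% and 6.09%), and the E-box CACGTG, read by MYC and others, in 5 (7.35%, against 8.09% and 11.9%). Median log2 differences of members with and without a motif were -0.89 and -0.97 for ETS, -0.96 and -0.91 for YY1, -1.05 and -0.90 for NRF1, and -0.97 and -0.91 for the E-box. A match describes letters and shows no binding.

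The windows of 4 called members are printed to show these motifs in place, 5′ to 3′ on the gene's own strand. Capitals mark the matches, which appear as the reverse complement where the motif lies on the other strand. Mrpl22 (chr11:58171414-58171713, plus strand) holds an ETS and an NRF1 match, which begin 53 and 33 bases before the start site. Mrps18a (chr17:46110754-46111053, plus strand) holds an ETS match that begins 26 bases before the start site and a YY1 match 11 bases after it. Mrpl36 (chr13:73330759-73331058, plus strand) holds an E-box 43 and a YY1 match 30 bases before it. Mrpl12 (chr11:120484387-120484686, plus strand), with a difference of -1.59, holds no match to these letters and so has no capitals.
Mrpl22: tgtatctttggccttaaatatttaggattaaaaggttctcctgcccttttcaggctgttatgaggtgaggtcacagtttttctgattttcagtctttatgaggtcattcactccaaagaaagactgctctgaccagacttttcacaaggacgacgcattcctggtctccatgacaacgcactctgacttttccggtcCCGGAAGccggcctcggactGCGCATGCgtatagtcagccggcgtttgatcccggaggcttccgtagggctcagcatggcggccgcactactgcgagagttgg
Mrps18a: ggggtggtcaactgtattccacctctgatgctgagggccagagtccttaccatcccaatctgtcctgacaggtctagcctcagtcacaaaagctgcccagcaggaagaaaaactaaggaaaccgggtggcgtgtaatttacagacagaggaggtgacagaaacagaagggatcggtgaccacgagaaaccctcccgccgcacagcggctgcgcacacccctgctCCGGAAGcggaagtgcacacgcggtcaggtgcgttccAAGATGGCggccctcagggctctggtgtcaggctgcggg
Mrpl36: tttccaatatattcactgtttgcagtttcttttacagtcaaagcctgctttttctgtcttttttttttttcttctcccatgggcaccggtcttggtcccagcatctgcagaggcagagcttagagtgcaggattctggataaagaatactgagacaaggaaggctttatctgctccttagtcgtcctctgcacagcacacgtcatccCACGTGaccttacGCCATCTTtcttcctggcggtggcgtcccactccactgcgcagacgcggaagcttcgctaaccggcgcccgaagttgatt
Mrpl12: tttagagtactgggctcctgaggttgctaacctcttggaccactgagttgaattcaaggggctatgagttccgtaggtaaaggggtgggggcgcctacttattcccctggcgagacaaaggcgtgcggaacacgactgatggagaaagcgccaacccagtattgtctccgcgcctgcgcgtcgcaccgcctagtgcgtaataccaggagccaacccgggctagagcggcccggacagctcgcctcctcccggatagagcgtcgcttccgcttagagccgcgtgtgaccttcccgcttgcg

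Members lie on 17 chromosomes, and just 1 pair has under 1000 bases between its loci. Mrpl46 and Mrps11 on chromosome 7 are read away from each other, with 41 bases between them. Mrpl46 had 9.25 and 8.08 FPKM in the libraries labelled Sox2 against 15.4 and 14.3 FPKM, and Mrps11 had 10.6 and 7.04 FPKM against 16.0 and 12.2 FPKM. Both were lower without overlap, by log2 differences of -0.71 and -0.64, and neither passed (limma adjusted p = 0.193 and 0.277).

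Other genes of the mitochondrial translation system were set beside the members. Of 6 mitochondrial ribosomal proteins that bear other symbols, 2 fell and 4 did not pass, with a median log2 difference of -1.05. Chchd1, a small-subunit protein, had 22.7 and 13.4 FPKM in the libraries labelled Sox2 against 44.9 and 38.0 FPKM (log2 difference -1.20, limma adjusted p = 0.0476). Ict1, a peptide-releasing enzyme built into the large subunit, had 20.1 and 14.7 FPKM against 35.3 and 44.3 FPKM (-1.16, 0.0448). Of 16 translation factors 2 fell, none rose and 14 did not pass (median -0.50). They were the elongation factor Tufm, at 15.3 and 8.00 FPKM against 41.9 and 26.8 FPKM (log2 difference -1.51, limma adjusted p = 0.0310), and its exchange factor Tsfm, at 9.33 and 4.63 FPKM against 23.7 and 18.5 FPKM (-1.53, 0.0303). Tsfm was 3.03-fold lower, and 4.57-fold lower without labelled Sox2 replicate 1.

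None of 26 genes for assembly of the mitochondrial ribosome and modification of its RNA passed (limma, 3 lower at an unadjusted p under 0.05), with a median of -0.48. Their 2 most abundant members were Mpv17l2 (log2 difference -0.48, limma adjusted p = 0.396) and Rbfa (-0.86, 0.123). None of 19 tested genes for charging mitochondrial transfer RNAs passed (limma, 5 lower at an unadjusted p under 0.05, median -0.56). None of 9 tested genes of mitochondrial DNA upkeep and transcription passed either (2 lower, median -0.53). Among all tested genes, 21.1% were lower at an unadjusted limma p under 0.05, the share to set beside these 3 counts. Lars2, a leucyl synthetase gene, stood far above the rest at 2458 and 2947 FPKM in the libraries labelled Sox2, against 1302 and 3274 FPKM in those labelled control. Its difference of 0.38 turned to -0.28 without labelled control replicate 1. Iars2, the next most abundant gene of that list, averaged 13.4 FPKM over all libraries. Whether all fragments counted for Lars2 came from its transcript was not tested. Iars2, Polg and Ssbp1 had differences of -0.67, 0.13 and -0.86. Of 8 tested regulators of mitochondrial biogenesis 1 fell, Myc, a growth regulator, at 9.46 and 6.37 FPKM against 19.4 and 31.1 FPKM (log2 difference -1.54, SE 0.38, limma adjusted p = 0.0241).

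Respiratory chain proteins made in the cytosol and the cytosolic ribosome were compared next. Of 78 tested nuclear subunits of oxidative phosphorylation 6 fell, none rose and 72 did not pass, with a median log2 difference of -0.69. Ndufb6, Ndufa12 and Ndufa4, named as parts of the respiratory chain, had differences of -1.46, -1.30 and -1.25. Of 83 tested cytosolic ribosomal protein genes 10 fell, none rose and 73 did not pass, with a median of -0.91, the same as that of the members. Their largest differences were those of Rpl26 (-2.17), Rpl30 (-1.80) and Rps2 (-1.69), and since genes of this kind have many processed copies, the assignment of their fragments is uncertain. Rpl26 was 5.22-fold lower, and 3.02-fold lower without labelled control replicate 1. By list, the share called lower was 23.4% of the members, 12.0% of the cytosolic ribosomal proteins and 7.69% of the oxidative phosphorylation subunits, beside 8.11% of all tested genes. The order of the lists depends on the threshold. At an unadjusted limma p under 0.05, 66 of the 83 cytosolic ribosomal protein genes were lower. So were 51 of the 77 members and 42 of the 78 oxidative phosphorylation subunits, beside 21.1% of all tested genes. These shares were not tested against each other. In all, 21 of the 245 tested genes of the lists other than the members fell, beside 8.11% of all tested genes. Without labelled Sox2 replicate 2 none passed (limma, 31 lower at an unadjusted p under 0.05), and without labelled Sox2 replicate 1 there were 8.

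The number of members called changed with the processing. With all libraries, limma called 11 members lower under median-of-ratios rescaling (5.7% of all tested genes), 15 under quantile normalization (6.87%) and 15 under median centring (6.14%). These 3 rescalings moved the median of all tested genes to 0.00017, -0.04 and -0.02, and 73, 74 and 75 of the members stayed below 0. The count was 18 for a pseudocount of 0.1 (8.22%), 17 of 72 tested members where a mean of 5 FPKM was required (9.16%), 10 with a variance model without trend (6.69%) and 24 with a robust one (11.2%). With no filter on low values it called none (0.0163%), and 51 members were then lower at an unadjusted p under 0.05 (14.2% of all tested genes). With the replicate number as a block it called 61 (22.7%). No member was called higher in any of these fits. Of those called in the reported fit, Mrps6, Mrps28, Mrpl22, Mrps18b, Mrpl20, Mrps12 and Mrpl54 did not pass under median-of-ratios rescaling. Without trend, Mrps5, Mrps28, Mrpl42, Mrpl18, Mrps18b, Mrpl20, Mrps12 and Mrpl54 did not pass. Relative to the median of all tested genes, the members' median was -0.59 under median-of-ratios rescaling and -0.57 under quantile normalization. It was -0.65 for a pseudocount of 0.1, -0.58 with the filter at 5 FPKM and -0.84 without a filter. The variance models, the replicate block and median centring cannot change this value, which was -0.62 in each as in the reported fit.

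**Figure D4:**
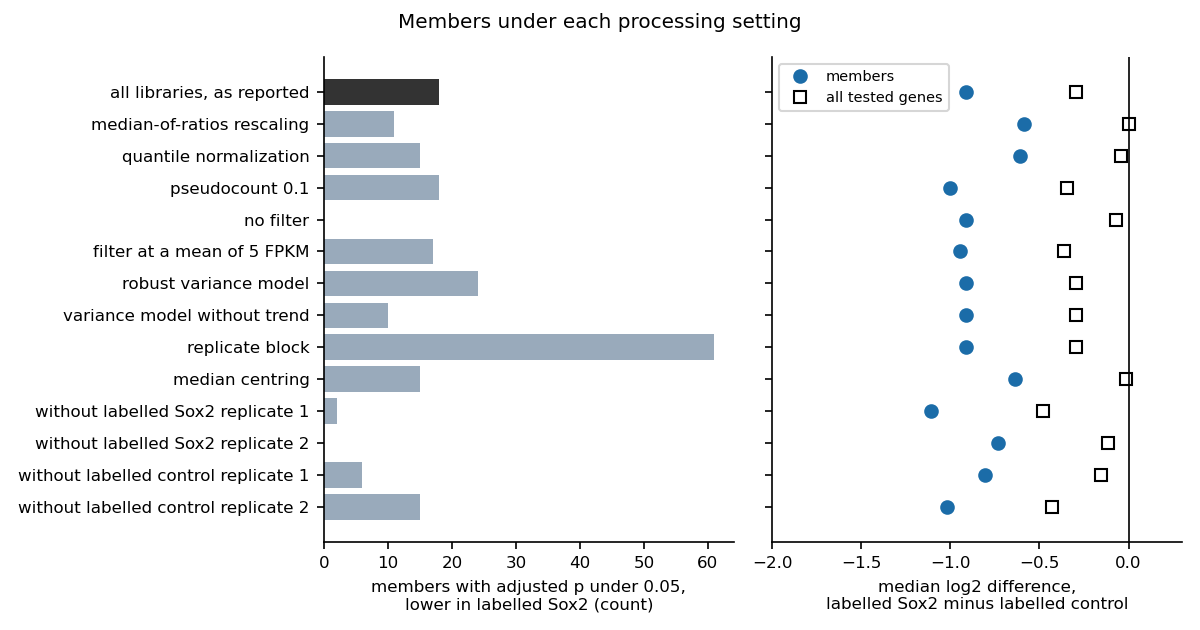
Number of members called lower (left) and median log2 difference of the members and of all tested genes (right) under each setting, with the reported fit at the top. Calls run from 0 without a filter and without labelled Sox2 replicate 2 to 61 with the replicate block. The median of the members lies below that of all tested genes in each setting, as at -0.91 against -0.29 in the reported fit. The variance models and the replicate block cannot change these medians.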

How the data were processed

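The deposited values were FPKM per gene, 1 table for each library, each value with low and high confidence bounds, per the file headers. The submitters' processing notes name mm10, TopHat2, Bowtie2, Cufflinks and Cuffdiff. Tool versions, annotation and strandedness: not given in the sources used here. These tables hold no counts, so depth is unknown and the bounds are the guide to precision. A combined table with columns q1 and q2 was not used, since the labels do not say which group each is.

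Tables of 24490 entries were joined by symbol and locus, and entries of 1 symbol were added (267 genes). Rn45s was dropped, as its status was not OK in 3 libraries. Genes averaging 1 FPKM or more were tested on log2(FPKM + 1) with limma 3.58.1 in R 4.3.3 (moderated variances with trend, two-sided, Benjamini-Hochberg over 12040 genes, threshold 0.05). Moderation drew each gene's variance toward that of genes at like levels, with 8.92 prior against 2 residual degrees of freedom. Each SE thus reflects mostly scatter shared across genes. The fit was also run on simulated data. Their scatter was independent between genes and libraries, so that run cannot show how the fit handles shifts common to a whole library. Starts of loci were moved by 1 base to count from 1. Alternatives were median-of-ratios and quantile rescaling, another pseudocount, other filters and variance models, a replicate block and each library left out. Median centring was added after the data were seen.

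Members, gene lists and tests were chosen with earlier results of these data known. The genes named are Sox2, the 12 called members with the largest difference, the 6 most abundant, the 3 nearest to 0, the Mrps18 family, and from each list up to 3 called genes or the 2 most abundant. Other genes named with values were chosen after their values were seen. They are Cyp2f2, Dnah5, Ears2, Krt5, Mrpl18, Mrpl20, Mrpl35, Mrpl44, Mrpl46, Mrps2, Mrps11, Mrps12, Mrps34, Nsun4 and Slc5a3. Subunit classes follow textbook nomenclature, with Mrps36 unclassed because its protein is now placed in another complex.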

Additional observations from a re-analysis of the deposited data

How the results depend on the processing

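The 18 members called lower became 11 under median-of-ratios rescaling, 10 with a variance model without trend, 0 with no filter (51 at an unadjusted p under 0.05, limma), 61 with the replicate block, and 0 to 15 with 1 library left out. Genes called lower in the other lists were 21 with all libraries, 10 under median-of-ratios rescaling, 12 under median centring, 13 without trend, 0 with no filter (88 at an unadjusted p under 0.05), 59 with the robust variance model, 76 with the replicate block, and 0 to 16 with 1 library left out. No gene of these lists was called higher in the reported fit, and 1, Nsun4, under each of median centring, median-of-ratios rescaling, quantile normalization and the replicate block. The members' median of -0.91 moved to -0.59 under median-of-ratios rescaling, -0.61 under quantile normalization and -0.64 under median centring. The large subunit's moved to -0.61, -0.63 and -0.66 and the small subunit's to -0.58, -0.59 and -0.64, settings in the same order, as all genes were shifted. Mrpl23 changed sign under median-of-ratios rescaling (0.14), quantile normalization (0.12) and median centring (0.074), and Mrpl24 under the first 2 of these (0.031 and 0.019). With 1 library left out, the difference ran from -0.039 to 0.37 for Mrpl14, from -0.44 to 0.034 for Mrpl23, from -0.28 to 1.05 for Lars2 and from -0.18 to 0.43 for Polg, and the lone library of a label is assumed to vary like the others. Replicate numbers come from the titles, which do not say whether they pair libraries. Deviations of same-numbered libraries correlated at r = 0.234 over the tested genes, and with only 2 pairs neither this nor the count with the block was taken to settle the pairing. The cause of the higher counts with the replicate block, and of the other changes of count, was not tested.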
